A study of Mus musculus with 16 samples.

Results

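Translation initiation and elongation factors are the proteins that load messenger RNA (mRNA) and initiator tRNA onto the ribosome and then drive it along the coding sequence. Their mRNA levels were described in mouse liver from 98 Affymetrix probe sets for 43 genes. The members were the probe sets annotated to 1 gene whose symbol begins with Eif1 to Eif6 or with Eef1 or Eef2. The eIF2 kinases, the eIF4E-binding proteins, Eif2s1, Eif2b1, Eif2b4 and Eif2b5 were left out of the set. The 98 were drawn from 22626 probe sets tested and the 43 from 12393 genes with a probe set of their own. Another 6 probe sets name a factor beside a second gene and were not counted, so Eif1, Eif4g1 and Eef1g were not analysed here. The symbol rule used no measured value, though the set was chosen with earlier results of these data known.

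All 16 arrays held liver RNA from male FvB/n mice, in 2 experiments of 8 arrays. In the first, 4 arrays came from AP20187-treated and 4 from untreated mice of the high-expressing TTR::Fv2E-PERK line. That transgene places the kinase domain of PERK, an eIF2α kinase, under the liver promoter Ttr, and the drug AP20187 joins the fusion proteins and activates them; both groups carried it. In the second, Alb::GC and wildtype mice were fed a high fat diet (HFD) or a low fat diet (LFD), with 2 arrays in each of the 4 groups. Alb::GC expresses an active C-terminal fragment of GADD34 from the albumin promoter; GADD34 directs the dephosphorylation of eIF2α. The labels do not say that each array is a separate animal; the p-values therefore rest on the variation from array to array, part of which may be technical. For LFD wildtype replicate 2 the source field mentions Alb::GC and wildtype alike, and for AP20187 replicate 4 it is a single letter; both arrays were placed by their description, and the counts without them are given below.

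As background, initiation begins when the GTPase eIF2, recharged by its exchange factor eIF2B, brings initiator tRNA to the small ribosomal subunit together with eIF1, eIF1A, eIF3 and eIF5. The cap-binding protein eIF4E, the scaffold eIF4G and the helicase eIF4A recruit the mRNA, and eIF5B joins the large subunit. Elongation is carried by eEF1A, which delivers aminoacyl-tRNA and is recharged by the eEF1B subunits, and by eEF2, which moves the ribosome. PERK phosphorylates the α subunit of eIF2, which slows initiation on most mRNAs while favouring a few such as that of the transcription factor ATF4.

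With AP20187, all probe sets of Eif3a, Eif3c, Eif4a1 and Eif5 rose and all of those of Eif2s3x fell, with at least 3 probe sets for each gene, and each has a promoter window in RefSeq (GRCm38.p6). These windows, from 250 bases before to 50 bases after the annotated start, are shown because these genes gave the same response on the most probe sets. Each is printed on its own strand, 5′ to 3′. Capitals mark matches, on either strand, to 3 motifs: TGATGNAAN, which the C/EBP and ATF family recognises, TGACGT, the core of the cyclic AMP response element, and CACGTG, the E-box.
Eif3a (chr19:60790644-60790943, minus strand): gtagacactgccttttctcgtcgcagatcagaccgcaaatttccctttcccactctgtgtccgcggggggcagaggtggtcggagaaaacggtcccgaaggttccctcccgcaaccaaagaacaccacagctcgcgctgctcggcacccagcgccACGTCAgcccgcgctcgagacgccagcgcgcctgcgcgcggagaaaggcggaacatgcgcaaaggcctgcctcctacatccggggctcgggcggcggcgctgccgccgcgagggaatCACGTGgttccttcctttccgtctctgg
Eif3c (chr7:126566317-126566616, minus strand): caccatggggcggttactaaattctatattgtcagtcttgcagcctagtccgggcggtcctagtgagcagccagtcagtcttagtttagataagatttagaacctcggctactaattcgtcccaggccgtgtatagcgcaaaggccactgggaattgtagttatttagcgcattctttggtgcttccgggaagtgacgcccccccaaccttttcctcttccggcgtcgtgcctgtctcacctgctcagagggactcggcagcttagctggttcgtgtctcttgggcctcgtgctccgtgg
Eif4a1 (chr11:69672374-69672673, minus strand): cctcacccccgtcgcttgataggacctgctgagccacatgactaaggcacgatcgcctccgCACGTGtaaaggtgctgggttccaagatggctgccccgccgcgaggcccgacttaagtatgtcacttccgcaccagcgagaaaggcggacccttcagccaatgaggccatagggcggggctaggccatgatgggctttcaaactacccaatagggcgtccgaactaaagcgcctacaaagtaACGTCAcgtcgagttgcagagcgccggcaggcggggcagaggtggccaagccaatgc
Eif5 (chr12:111537851-111538150, plus strand): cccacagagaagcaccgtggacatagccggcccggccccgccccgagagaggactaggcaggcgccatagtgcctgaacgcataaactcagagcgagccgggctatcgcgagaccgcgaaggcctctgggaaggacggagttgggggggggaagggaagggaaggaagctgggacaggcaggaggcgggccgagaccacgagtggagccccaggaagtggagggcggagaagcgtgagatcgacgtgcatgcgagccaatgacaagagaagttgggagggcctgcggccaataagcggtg
Eif2s3x (chrX:94212602-94212901, minus strand): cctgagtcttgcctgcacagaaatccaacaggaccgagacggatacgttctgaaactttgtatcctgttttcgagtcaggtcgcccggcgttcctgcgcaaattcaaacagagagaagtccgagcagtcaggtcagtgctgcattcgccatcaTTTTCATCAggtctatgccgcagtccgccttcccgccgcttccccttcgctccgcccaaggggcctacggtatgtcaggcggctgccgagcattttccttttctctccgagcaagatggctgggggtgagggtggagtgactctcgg
Counting the annotated start as base 0, the Eif3a window held a TGACGT match at -95 and an E-box at 22, and the Eif4a1 window a TGACGT match at -7 and an E-box at -189. The Eif2s3x window held a TGATGNAAN match at -97, and the Eif3c and Eif5 windows held none of the 3 motifs. Over the 48 windows found for 34 member genes, 4.17% held TGATGNAAN, against 3.95% of all 32851 windows. TGACGT was found in 18.8% of member windows, against 7.51% of all windows, and CACGTG in 27.1%, against 7.15%. Windows of 1 gene overlap, and matches of different motifs may overlap too. The E-box was found in 3 of 9 genes with a window that rose, 3 of 10 that fell and 5 of 15 that did neither. TGACGT was found in 2, 3 and 2 of these genes and TGATGNAAN in 0, 1 and 1. A match is a string of letters, and no binding was measured.

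The deposited value is a ratio near 1 for each probe set and array, so it gives no absolute level and no gene can be ranked as more abundant than another. The array medians lay between 0.94 and 1.02 and replicates of a group correlated at 0.442 to 0.658 over all probe sets. Differences below are AP20187 minus untreated, HFD minus LFD or Alb::GC minus wildtype on the log2(ratio + 0.05) scale, with the standard error (SE), from limma with Benjamini-Hochberg adjustment over 22626 probe sets. With AP20187, the median probe set of the whole array shifted by -0.13. Markers of liver cell types also moved. With AP20187, 5 of 7 hepatocyte genes fell, and the mean ratio of the list was 0.889 to 1.04 on AP20187 arrays, against 1.78 to 2.23 on untreated arrays. Otc, a urea cycle enzyme, fell furthest in that list (-3.32, -1.49 and -1.41 on 3 probe sets), and the list's median difference was -0.53. The macrophage list had 4 of 7 lower, with means of 0.76 to 1.03 against 1.18 to 1.25, and the stellate and fibroblast list 3 of 6 lower, with means of 0.849 to 0.964 against 1.74 to 2.28. Their median differences were -0.40 and -0.63. Col1a1, Col1a2 and Col3a1 gave -2.30, -2.15 and -2.02 on 1 probe set each, and -0.76, -0.42 and -0.89 on the other. Des, Lrat and Dcn did not pass. The endothelial list had 2 of 6 lower, the lymphocyte list 1 of 5 lower and the cholangiocyte list 1 of 4 higher, while no gene of the neutrophil, erythroid and adipocyte lists passed. No marker was listed at 0, and the part of these shifts in the results on translation factors was not tested.

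With AP20187, 24 of the 98 factor probe sets rose, 21 fell and 53 did not pass, so 45.9% of the members were called. Across the whole array 34.1% of probe sets were called, 13.7% as higher and 20.4% as lower, so 40.2% of the calls were higher. Quantile normalization gave 49.8% higher among all calls, with 25 members higher and 16 lower. On the deposited scale, the members were called higher in 24.5% and lower in 21.4% of cases, and their median difference was 0.00, against -0.13 over all probe sets. By gene, 11 factors rose, 13 fell, 19 had no probe set past the threshold, and none had probe sets past it in opposite directions; over all genes 16.3% rose, 24.3% fell and 0.21% were opposed. A gene counts when any of its probe sets passes, and the factors had 98 probe sets for 43 genes, against 20380 for 12393. The shares of all genes are therefore not a like baseline for these counts. The AP20187 and untreated arrays did not overlap for 27 members that were higher (27.6%, against 14.5% of all probe sets) and for 26 that were lower (26.5%, against 20.5%). In bulk liver, fewer cells of a type and less RNA per cell cannot be told apart.

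The 24 probe sets that rose had group means of 0.955 to 1.09 on AP20187 arrays, against 0.452 to 0.812 on untreated arrays. The 21 that fell had means of 0.575 to 0.922 on AP20187 arrays, against 0.992 to 2.01 on untreated arrays. Of the 45 calls, 34 were kept when each of the 8 arrays was left out in turn, and the exceptions are named with their genes. Without AP20187 replicate 4, 38 members passed.

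**Figure D1:**
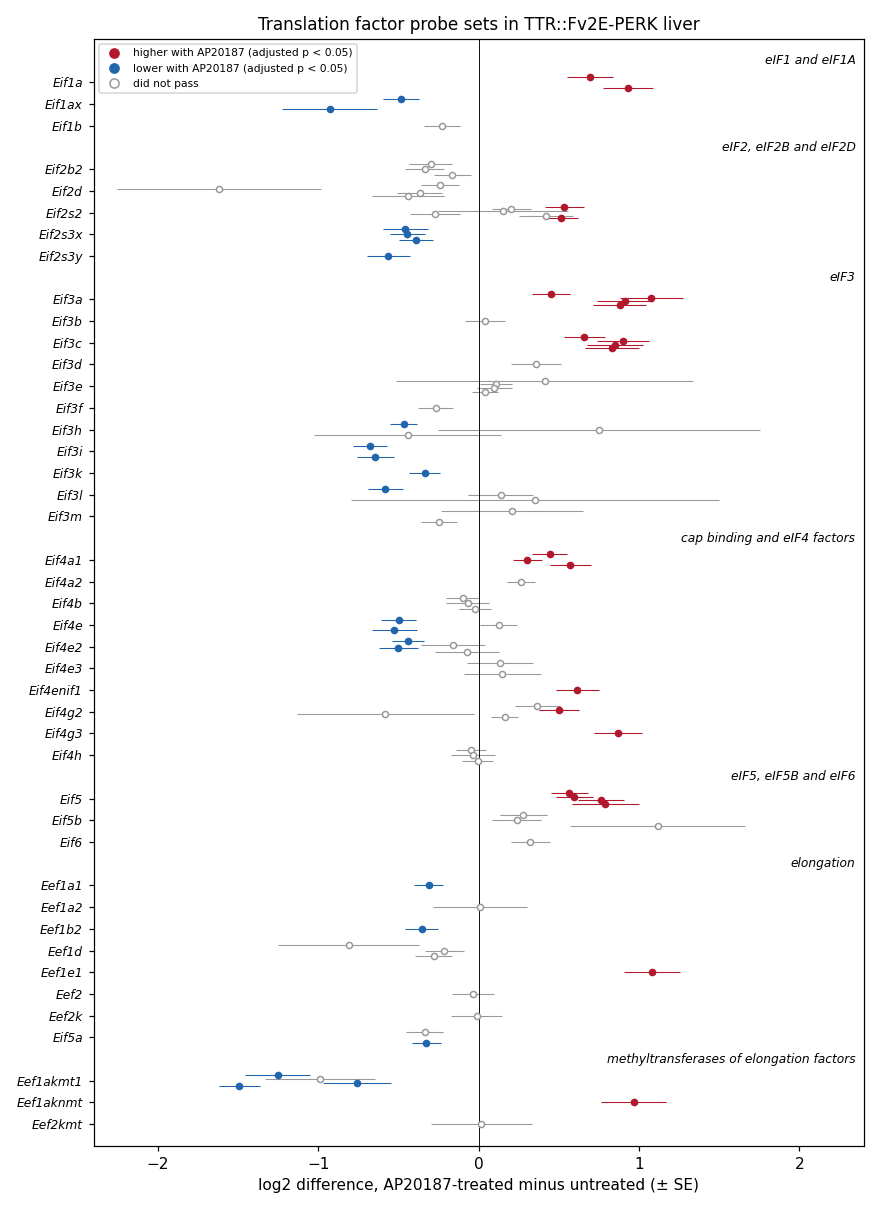
Log2 difference between AP20187-treated and untreated TTR::Fv2E-PERK liver (x axis, log2 units, with SE bars) for each of the 98 probe sets, by gene and factor complex (y axis); red points are the 24 that rose, blue the 21 that fell and open grey points those that did not pass. All probe sets of Eif3a, Eif3c, Eif4a1 and Eif5 lie to the right of 0, and all those of Eif2s3x and Eif3i lie to the left.

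Of the 3 genes of eIF1 and eIF1A, 1 rose, 1 fell and 1 did not pass. The eIF1A protein helps the ribosome find the start codon, and mouse has an autosomal gene for it, Eif1a, and an X-linked one, Eif1ax. Eif1a rose on both of its probe sets. On 1424344_s_at it had ratios of 0.93, 1.1, 1.12 and 0.91 on AP20187 arrays, against 0.49, 0.49, 0.47 and 0.58 on untreated arrays, a difference of 0.93 ± 0.15 (SE, limma adjusted p = 0.0025). The groups did not overlap, and the other probe set gave 0.70 ± 0.14 (adjusted p = 0.0067). Eif1ax fell on both of its probe sets. On 1419736_a_at its ratios were 0.69, 0.67, 0.68 and 0.74 on AP20187 arrays, against 0.9, 0.97, 1.04 and 1.06 on untreated arrays, a difference of -0.48 ± 0.11 (adjusted p = 0.0128). The other Eif1ax probe set gave -0.93 ± 0.30 (adjusted p = 0.0421), and lost its call on leaving out any untreated array or AP20187 replicate 3 or 4, with adjusted p-values up to 0.0994. The sequences of Eif1a and Eif1ax are close relatives, and an _s_at probe set may read more than 1 transcript. Eif1b, a relative of Eif1, gave -0.23 ± 0.11 (adjusted p = 0.165).

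Among eIF2, eIF2B and eIF2D, the β subunit of eIF2 was higher and both γ subunit genes were lower. Eif2s2, the β subunit, passed on 2 of 6 probe sets. On 1456617_a_at it had 1.02, 0.97, 0.98 and 1.06 on AP20187 arrays, against 0.74, 0.64, 0.71 and 0.68 on untreated arrays (0.51 ± 0.11, limma adjusted p = 0.0084). On 1417712_at the difference was 0.53 ± 0.12 (adjusted p = 0.0106), and the remaining 4 gave -0.27 to 0.42. Eif2s3x, the X-linked γ subunit, fell on all 3 of its probe sets. On 1423744_x_at it had 0.76, 0.76, 0.77 and 0.79 on AP20187 arrays, against 1.08, 0.99, 0.98 and 1.23 on untreated arrays, a difference of -0.44 ± 0.11 (adjusted p = 0.0139). Every treated array was below every untreated one. The probe set with a difference of -0.46 ± 0.14 lost its call when any of AP20187 replicates 2 and 4 and untreated replicates 1, 3 and 4 was left out (adjusted p up to 0.1002). That with -0.39 ± 0.11 lost it without AP20187 replicate 2 or untreated replicate 3 or 4 (up to 0.0649). Eif2s3y, the Y-linked copy of the γ subunit, had 0.91, 0.79, 0.83 and 1.02 on AP20187 arrays, against 1.33, 1.1, 1.31 and 1.62 on untreated arrays (-0.56 ± 0.13, adjusted p = 0.0125). Eif2b2, the β subunit of eIF2B, gave -0.34 to -0.16 on 3 probe sets and did not pass. Eif2d, which acts in initiation and ribosome recycling outside the canonical route, gave -1.62 to -0.24 on 4 probe sets and did not pass either.

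The subunits of eIF3, the largest initiation factor and a scaffold on the small subunit, fell into 2 groups that rose or fell and a larger group that did neither. Of 11 subunit genes, 2 rose, 4 fell and 5 did not pass, and of their 26 probe sets 8 rose and 5 fell. Eif3a, the largest subunit, rose on all 4 of its probe sets. On 1416660_at it had 1.04, 0.96, 1.23 and 0.94 on AP20187 arrays, against 0.51, 0.39, 0.39 and 0.6 on untreated arrays (1.08 ± 0.20, limma adjusted p = 0.0037). On 1448425_at it had 0.94, 1.06, 1.04 and 0.96, against 0.59, 0.43, 0.47 and 0.61 (0.88 ± 0.17, adjusted p = 0.0044). No AP20187 array overlapped an untreated one on any of the 4. The smallest of the 4 differences, 0.45 ± 0.12, lost its call without AP20187 replicate 1 (adjusted p = 0.0537). Eif3c, another core subunit, also rose on all 4 of its probe sets. On 1415859_at it had 1.12, 1.11, 0.83 and 0.89 on AP20187 arrays, against 0.49, 0.51, 0.5 and 0.51 on untreated arrays (0.90 ± 0.16, adjusted p = 0.0037). Its other 3 gave 0.66 to 0.85, with adjusted p-values of 0.0050 to 0.0063.

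Another 4 subunits fell. Eif3i, a WD-repeat subunit, had 0.69, 0.68, 0.82 and 0.67 on AP20187 arrays, against 1.13, 1.19, 1.13 and 1.23 on untreated arrays on 1416233_at (-0.68 ± 0.10, limma adjusted p = 0.0018). Its second probe set gave -0.64 ± 0.12 (adjusted p = 0.0036), and neither overlapped between the groups. Eif3l had 0.67, 0.68, 0.67 and 0.74 on AP20187 arrays, against 1.02, 1.01, 1.05 and 1.15 on untreated arrays on 1423728_at (-0.58 ± 0.11, adjusted p = 0.0041). Eif3h had 0.84, 0.79, 0.89 and 0.82 on AP20187 arrays, against 1.16, 1.12, 1.15 and 1.26 on untreated arrays on 1415962_at (-0.47 ± 0.08, adjusted p = 0.0038). Both genes have 2 further probe sets that did not pass and whose replicates were widely spread, from 0.12 to 2.28 on AP20187 arrays for Eif3h 1434323_at. Eif3k, which binds Eif3l, had 0.82, 0.78, 0.92 and 0.78 on AP20187 arrays, against 1.07, 1.04, 1.06 and 1.04 on untreated arrays (-0.34 ± 0.09, adjusted p = 0.0260). That call was kept without AP20187 replicate 3 and lost without any other single array, with adjusted p-values up to 0.0698. Eif3b, Eif3d, Eif3e, Eif3f and Eif3m did not pass. For Eif3e, 1460432_a_at had 0.98, 0.98, 1.01 and 0.99 on AP20187 arrays, against 0.89, 0.99, 0.96 and 1.01 on untreated arrays, a difference of 0.04 ± 0.08.

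**Figure D2:**
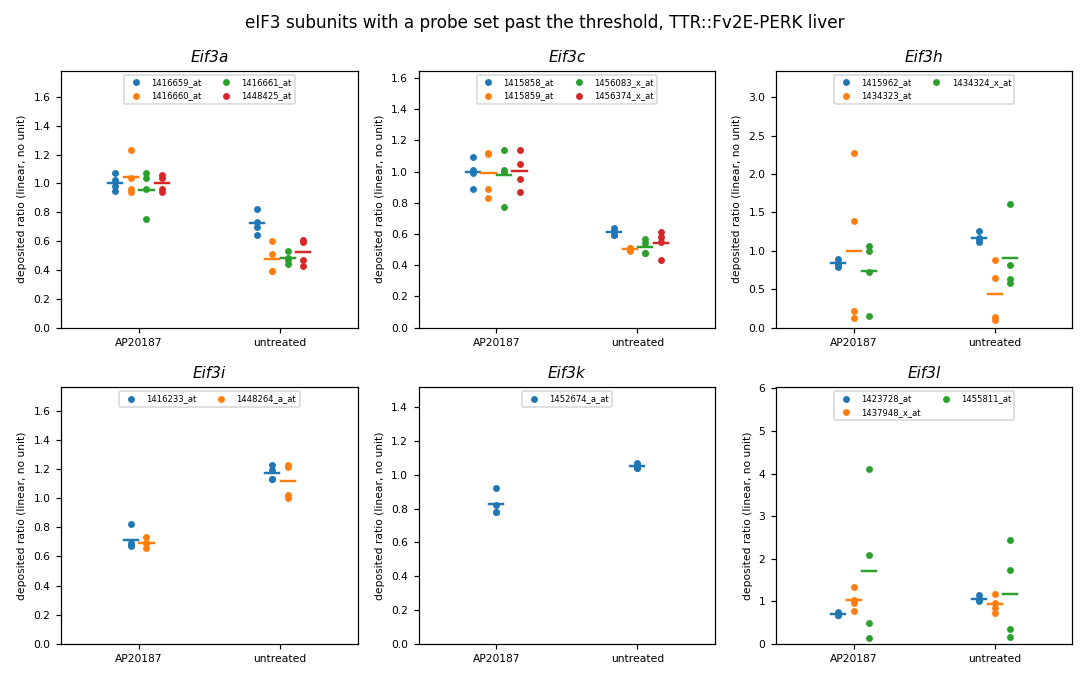
Deposited ratio (y axis, linear, no unit) on each of the 4 AP20187 and 4 untreated arrays (x axis) for the 6 eIF3 subunits with a probe set past the threshold; points are arrays, colours are probe sets and short bars are means of 4 arrays. The AP20187 arrays lie above the untreated arrays on all probe sets of Eif3a and Eif3c and below them on those of Eif3i and Eif3k, while 2 probe sets each of Eif3h and Eif3l overlap between the groups.

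Of the 10 genes of the cap-binding and eIF4 group, 4 rose, 2 fell and 4 did not pass. Eif4a1, the helicase that unwinds the leader of the mRNA, rose on all 3 of its probe sets. On 1434985_a_at it had 1, 1, 1.15 and 0.98 on AP20187 arrays, against 0.72, 0.58, 0.67 and 0.75 on untreated arrays (0.57 ± 0.13, limma adjusted p = 0.0099). On 1427058_at the difference was 0.44 ± 0.11 (adjusted p = 0.0155). The smallest, 0.30 ± 0.09 on 1430980_a_at, kept its call without AP20187 replicate 3 and lost it without any other single array, with adjusted p-values up to 0.109. Eif4a2, the paralogous helicase, had 1, 1, 1.01 and 0.98 on AP20187 arrays, against 0.82, 0.79, 0.83 and 0.85 on untreated arrays. Its groups did not overlap, but its difference of 0.26 ± 0.09 had an adjusted p of 0.0518 and passed under 4 other settings, with adjusted p-values of 0.0215 to 0.04999. Eif4g3, a scaffold paralogous to eIF4G1, had 1.02, 0.96, 1.29 and 0.98 on AP20187 arrays, against 0.57, 0.5, 0.59 and 0.56 on untreated arrays (0.87 ± 0.15, adjusted p = 0.0028). Eif4g2, an eIF4G relative that does not bind eIF4E, rose on 1 of 4 probe sets (0.50 ± 0.13, adjusted p = 0.0165), and the others gave -0.58 to 0.37.

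The cap-binding proteins themselves did not rise. Eif4e had 0.76, 0.79, 0.68 and 0.79 on AP20187 arrays, against 1.03, 1.15, 1 and 1.17 on untreated arrays on 1423220_at (-0.50 ± 0.11, limma adjusted p = 0.0082). A second Eif4e probe set gave -0.53 ± 0.14 (adjusted p = 0.0200), and the third gave 0.13 ± 0.11 and did not pass. Eif4e2, a cap-binding relative known as a translational repressor, fell on 2 of 4 probe sets (-0.44 ± 0.10 and -0.50 ± 0.12, adjusted p = 0.0101 and 0.0138). Eif4e3 gave 0.13 and 0.15 on its 2 probe sets and did not pass. Eif4enif1, which carries eIF4E into the nucleus and represses bound mRNAs, rose: it had 1.01, 0.98, 1.09 and 0.99 on AP20187 arrays, against 0.72, 0.72, 0.6 and 0.56 on untreated arrays (0.62 ± 0.13, adjusted p = 0.0084). The eIF4A cofactors Eif4b and Eif4h gave -0.10 to -0.01 on 3 probe sets each, with adjusted p-values of 0.519 or more.

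Eif5, which triggers GTP hydrolysis on eIF2 at the start codon, rose on all 4 of its probe sets, by 0.57 ± 0.12, 0.60 ± 0.12, 0.76 ± 0.15 and 0.79 ± 0.21 (limma adjusted p = 0.0065, 0.0050, 0.0047 and 0.0196). On 1433631_at it had 0.99, 1.04, 0.96 and 1.01 on AP20187 arrays, against 0.67, 0.61, 0.68 and 0.62 on untreated arrays. The groups did not overlap on any of the 4. The largest difference lost its call without AP20187 replicate 1 or 2 (adjusted p = 0.0575 and 0.0602). Eif5b, the GTPase of subunit joining, gave 0.24 to 1.12 on 3 probe sets and did not pass. Eif6, which keeps the large subunit from joining too early, gave 0.32 ± 0.12 (adjusted p = 0.0768).

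Among elongation factors 3 genes fell, 1 rose and 4 did not pass. Eef1a1, the main eEF1A of liver, had 0.89, 0.85, 1.02 and 0.93 on AP20187 arrays, against 1.17, 1.17, 1.07 and 1.21 on untreated arrays (-0.31 ± 0.09, limma adjusted p = 0.0273). Its groups did not overlap, but its call was lost under quantile normalization (-0.21, adjusted p = 0.118) and without any single array other than AP20187 or untreated replicate 3 (up to 0.0773). Eef1b2, a subunit of the exchange factor of eEF1A, had 0.79, 0.75, 0.85 and 0.74 on AP20187 arrays, against 1.02, 0.96, 0.98 and 1.1 on untreated arrays (-0.36 ± 0.10, adjusted p = 0.0299). Its call was lost on leaving out 6 of the 8 arrays, all but AP20187 replicate 3 and untreated replicate 2 (up to 0.0813). Eif5a, which helps the ribosome over difficult stretches such as proline runs, gave -0.33 ± 0.09 and -0.34 ± 0.11 on its 2 probe sets (adjusted p = 0.0275 and 0.0536). On 1451470_s_at the call was lost under quantile normalization (adjusted p = 0.0677) and on leaving out AP20187 replicates 1, 2 or 4 or untreated replicates 1 or 4 (up to 0.0755). Eef2, the translocase, had 0.85, 0.87, 1.13 and 0.83 on AP20187 arrays, against 1, 0.84, 0.9 and 1.01 on untreated arrays, a difference of -0.03 ± 0.13. Eef2k, the kinase that inhibits eEF2, gave -0.01 ± 0.16, and Eef1a2 and Eef1d did not pass. Eef1e1, a scaffold protein of the multi-synthetase complex that carries an elongation factor symbol, rose. It had 0.93, 1.05, 1.08 and 0.96 on AP20187 arrays, against 0.47, 0.36, 0.54 and 0.44 on untreated arrays (1.08 ± 0.18, adjusted p = 0.0023), with no overlap.

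Of the 3 genes for enzymes that methylate elongation factors, 1 fell, 1 rose and 1 did not pass. The one that fell, Eef1akmt1, gave the largest fall that passed among the members. Eef1akmt1, a lysine methyltransferase of eEF1A, had 0.63, 0.82, 0.7 and 0.59 on AP20187 arrays, against 1.87, 1.89, 1.9 and 2.39 on untreated arrays on 1449072_a_at (-1.49 ± 0.13, limma adjusted p = 1.34e-04). It fell on 1418386_at (-1.25 ± 0.20, adjusted p = 0.0023) and on 1435270_x_at (-0.76 ± 0.21, adjusted p = 0.0259). The last of these lost its call without AP20187 replicates 1, 2 or 3 or untreated replicates 1 or 3 (up to 0.0710), and the fourth probe set gave -0.99 ± 0.34 (adjusted p = 0.0571). Eef1aknmt, which methylates eEF1A at other sites, rose: it had 0.94, 1.42, 0.96 and 1.04 on AP20187 arrays, against 0.56, 0.62, 0.56 and 0.39 on untreated arrays (0.97 ± 0.20, adjusted p = 0.0072). Eef2kmt, the corresponding enzyme for eEF2, gave 0.02 ± 0.32.

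Whether paralogues changed unequally was tested over arrays for 4 chosen pairs of cap-binding, helicase and elongation factors, each gene taken as the mean of its own probe sets. The difference Eif4a1 minus Eif4a2 was -0.02 to 0.09 on AP20187 arrays, against -0.19 to -0.11 on untreated arrays. The change with AP20187 was thus 0.18 ± 0.03 larger for Eif4a1 (SE; exact two-sided permutation p = 0.0286, the smallest that 4 against 4 allows; 0.114 after Benjamini-Hochberg adjustment over the 4 pairs). Eif4e minus Eif4e3 changed by -0.44 ± 0.18 (exact permutation p = 0.0571, adjusted 0.114), Eif4e minus Eif4e2 by -0.01 ± 0.12 (adjusted 0.943) and Eef1a1 minus Eef1a2 by -0.32 ± 0.34 (adjusted 0.533). Over 4 pairs, 1 pair alone at the smallest p has an adjusted p of 0.114, so Eif4a1 and Eif4a2 could not pass by themselves whatever their values. Other paralogues with both genes measured, such as Eif1a and Eif1ax, were not tested in this way.

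Other genes of the translation machinery were read from a list of 33, of which 26 were measured. With AP20187, 11 rose, 4 fell and 11 did not pass, beside 16.3% of all genes that rose and 24.3% that fell. Many genes of this list also have several probe sets, so the shares of all genes are only a loose guide. The median difference over the list's probe sets was 0.21. Both kinases of eIF4E were among those that rose: Mknk2 by 1.20 ± 0.16 and 1.19 ± 0.17 on its 2 probe sets, and Mknk1 by 0.94 ± 0.19 and 0.79 ± 0.16 on 2 of 3. The poly(A)-binding protein gene Pabpc4 rose by 0.91 ± 0.14 and 1.23 ± 0.18, the release factor Etf1 by 0.59 ± 0.15 and 0.66 ± 0.13 on 2 of 5 probe sets, and the helicase Ddx3x by 0.51 to 0.73 on 3 of 3. Pdcd4, an inhibitor of eIF4A, fell by 0.60 ± 0.09 and Mcts1, a partner of Denr in reinitiation, by 0.57 ± 0.08. The mitochondrial elongation factors Gfm1 and Gfm2 fell on 1 of 2 probe sets each, by 0.63 ± 0.10 and 0.42 ± 0.09.

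In the diet experiment, HFD was set against LFD over both genotypes, 4 arrays against 4, to ask whether the feeding altered the same factors. Of the 98 members 10 rose, 13 fell and 75 did not pass, so 23.5% were called, against 27.5% of all probe sets (13.5% higher and 14% lower). The members' median difference was -0.04, against -0.07 over all probe sets. HFD and LFD arrays did not overlap for 11 members that were higher (11.2%, against 12.9% of all probe sets) and 23 that were lower (23.5%, against 15.9%). By gene, 5 rose, 9 fell, 27 did not pass, and 2 had probe sets past the threshold in opposite directions; over all genes 16% rose, 19.3% fell and 1.4% were opposed. As with AP20187, the shares of all genes are not a like baseline. Leaving out each array in turn gave 7 to 16 called members, some of them new, and kept 7 to 14 of the 23 calls. Such a fit also rests on fewer arrays, and the part of this in the lost calls was not tested. In all 8 of these fits 5 calls were kept and 4 were kept in none. The fits kept 7 calls without HFD wildtype replicate 1 or HFD Alb::GC replicate 2, 8 without HFD wildtype replicate 2 or LFD Alb::GC replicate 2, and 9 without HFD Alb::GC replicate 1. They kept 13 without LFD Alb::GC replicate 1, and 12 and 14 without LFD wildtype replicates 1 and 2.

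Arrays of the 2 diets also differed in control signals of RNA integrity. The log2 ratio of 3′ to 5′ probe sets was -0.71 to -0.33 for actin on HFD arrays, against -0.16 to 0.21 on LFD arrays, and -0.31 to -0.15 for Gapdh on HFD arrays, against 0.04 to 0.22 on LFD arrays. In the TTR::Fv2E-PERK experiment the actin value was -0.04 to 0.15 on AP20187 arrays, against -0.18 to -0.02 on untreated arrays, and that of Gapdh -0.14 to 0.19, against -0.06 to -0.01. Of the marker lists, 2 of 6 endothelial genes rose with HFD, with list means of 1.16 to 1.56 on HFD arrays, against 0.779 to 1.02 on LFD arrays. The hepatocyte list had 1 of 7 higher and 3 of 7 lower (means of 0.917 to 0.993 against 0.909 to 1.18), and the stellate and fibroblast list 2 of 6 lower (0.963 to 1.22 against 0.742 to 1.21). The macrophage list had 1 of 7 higher and the lymphocyte list 1 of 5. The neutrophil list had 1 of 4 higher and 1 lower, and its mean was 0.452 to 0.778 in HFD Alb::GC, against 1.03 to 1.17 in LFD Alb::GC, and 2.4 to 2.92 in HFD wildtype, against 0.728 to 1.06 in LFD wildtype. The HFD ranges of the 2 genotypes did not overlap, and the part of this list in the comparisons within a diet or a genotype below was not tested. Its genes differed over both genotypes: S100a8 gave 1.02 ± 0.35 and S100a9 0.88 ± 0.26, against -0.50 ± 0.14 for Mpo and -0.70 ± 0.24 for Elane. The erythroid list had 1 of 2 each way (2.23 to 2.71 against 1.06 to 1.46). Alas2 gave 2.17 ± 0.23 and Hba-a1 -1.97 ± 0.31, and the list's median difference was 0.10. In the neutrophil and erythroid lists, a mean of linear ratios weighs rises more than falls. The cholangiocyte list had 1 of 4 lower and 1 opposed, and no adipocyte gene passed. The part of the 3′ to 5′ ratios and of the markers in the diet results was not tested.

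The 2 genes with opposed probe sets were Eif2s2 and Eif5. Eif2s2 rose on 1448820_a_at, where it had 1.76 and 1.65 in HFD Alb::GC and 2.61 and 2.12 in HFD wildtype, against 0.95 and 1.01 in LFD Alb::GC and 0.95 and 0.77 in LFD wildtype (1.09 ± 0.12, limma adjusted p = 0.0034). It rose on 1417713_at (0.51 ± 0.13, adjusted p = 0.0314) and fell on 1448819_at, with 0.67 to 0.75 on the 4 HFD arrays, against 1.06 to 1.18 on the 4 LFD arrays (-0.62 ± 0.12, adjusted p = 0.0162). The first of these was kept without each array in turn, the fall was lost without HFD wildtype replicate 1 (adjusted p = 0.0516), and 1417713_at kept its call without LFD wildtype replicate 2 and lost it without any other (up to 0.111). Of the Eif2s2 probe sets that did not pass, 1417712_at and 1456617_a_at, which had risen with AP20187, gave -0.40 ± 0.17 and 0.41 ± 0.17. The last, 1441023_at, gave 0.44 ± 0.27. Eif5 gave 0.36 ± 0.10 on 1454663_at and -0.36 ± 0.11 on 1415723_at (adjusted p = 0.0400 and 0.0496), and both calls were lost without each array in turn (0.0601 to 0.131). These 2 Eif5 probe sets had risen together with AP20187.

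**Figure D3:**
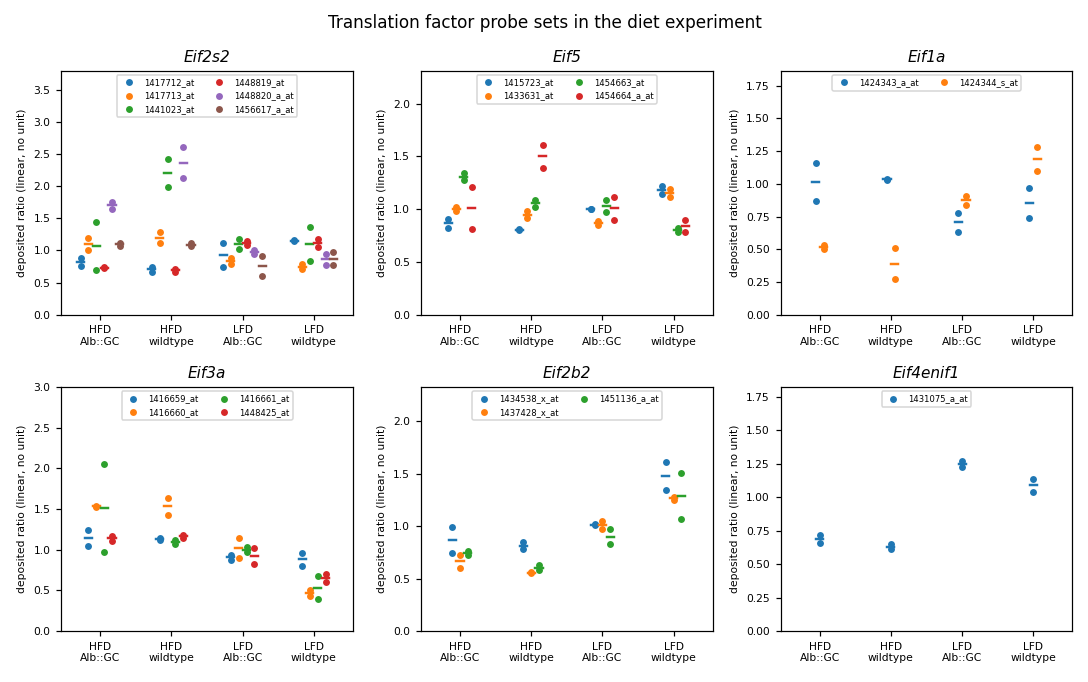
Deposited ratio (y axis, linear, no unit) on each array of the 4 diet and genotype groups (x axis, 2 arrays each) for 6 factor genes; points are arrays, colours are probe sets and short bars are means of 2 arrays. The probe sets of Eif2s2, Eif5 and Eif1a part in both directions between HFD and LFD, whereas those of Eif2b2 lie lower on HFD and Eif4enif1 lies at 0.61 to 0.72 on HFD, against 1.04 to 1.27 on LFD.

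Eif2b2, the β subunit of the exchange factor eIF2B, fell on all 3 of its probe sets with HFD. On 1437428_x_at it had 0.6 and 0.73 in HFD Alb::GC and 0.55 and 0.56 in HFD wildtype, against 1.05 and 0.97 in LFD Alb::GC and 1.28 and 1.25 in LFD wildtype (-0.85 ± 0.14, limma adjusted p = 0.0110). That call was kept without each array in turn, and the other 2 (-0.53 ± 0.13 and -0.63 ± 0.17) were kept in 2 and 1 of the 8 fits, with adjusted p-values up to 0.0898 and 0.0924. Eif2s3x rose on 1 of 3 probe sets (0.60 ± 0.12, adjusted p = 0.0186; 0.0585 to 0.0681 without HFD wildtype replicate 1 or either HFD Alb::GC array). Its other 2 gave -0.12 and -0.00. The translation repressor Eif4enif1 fell by 0.78 ± 0.12 (adjusted p = 0.0094), and its call was kept without each array in turn.

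Among eIF3 subunits, Eif3a rose on 2 of 4 probe sets. On 1416660_at it had 1.53 and 1.54 in HFD Alb::GC and 1.64 and 1.43 in HFD wildtype, against 1.15 and 0.9 in LFD Alb::GC and 0.43 and 0.51 in LFD wildtype (1.09 ± 0.12, limma adjusted p = 0.0041). This call was kept without each array in turn; the second, 0.55 ± 0.13, was kept in 3 of 8 fits (up to 0.0854). Eif3c rose on 1 of 4 probe sets (0.85 ± 0.20, adjusted p = 0.0287; kept in 3 of 8 fits, up to 0.0840), and another of its probe sets gave -0.42 ± 0.21. Eif3i fell on 1 of 2 probe sets (-0.53 ± 0.12, adjusted p = 0.0260; kept in 2 of 8 fits, up to 0.0747), while the other gave 0.36 ± 0.12 (adjusted p = 0.0749). Eif3e fell on 1 of 4 (-0.63 ± 0.16, adjusted p = 0.0323), a call lost without each array in turn (0.0530 to 0.0923).

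Eif5b rose on 2 of 3 probe sets with HFD. On 1434604_at it had 1.82 and 1.69 in HFD Alb::GC and 1.23 and 1.34 in HFD wildtype, against 0.58 and 0.77 in LFD Alb::GC and 0.97 and 0.74 in LFD wildtype (0.95 ± 0.14, limma adjusted p = 0.0075), kept without each array in turn. The second, 0.55 ± 0.12, was kept in 4 of 8 fits (up to 0.0761). In the eIF4 group Eif4g2 rose on 1 of 4 probe sets (0.46 ± 0.13), and Eif4e, Eif4e2 and Eif4h fell on 1 of 3, 1 of 4 and 1 of 3 (-0.57 ± 0.15, -0.59 ± 0.16 and -0.81 ± 0.19), with adjusted p-values of 0.0281 to 0.0453. The Eif4g2 call was kept in none of the 8 fits and the 3 falls in 1 each, with adjusted p-values up to 0.142. The remaining probe sets of these genes did not pass. Those of Eif4e gave 0.19 ± 0.12 and 0.30 ± 0.11, against the fall, and those of Eif4e2 gave -0.23 to 0.09. Those of Eif4h gave -0.35 and -0.16, and those of Eif4g2 -0.37 to 0.17. Eif1a fell on 1424344_s_at, with 0.53 and 0.5 in HFD Alb::GC and 0.51 and 0.27 in HFD wildtype, against 0.84 and 0.91 in LFD Alb::GC and 1.28 and 1.1 in LFD wildtype (-1.13 ± 0.25, adjusted p = 0.0217; kept in 3 of 8 fits, up to 0.0601). Its other probe set gave 0.38 ± 0.17 and did not pass. Of the elongation factors Eef1d, an exchange subunit for eEF1A, passed, on 1 of 3 probe sets (-0.91 ± 0.19, adjusted p = 0.0194; kept in 4 of 8 fits, up to 0.0595). Eef1a1, Eef1b2, Eif5a, Eef2 and Eef2k did not pass, with differences of -0.30 to -0.00. The methyltransferases did not pass either, and the smallest adjusted p among them was that of Eef1aknmt. Of the other 26 translation genes 7 rose with HFD, 4 fell and 15 did not pass, with a median difference of 0.07, beside 16% of all genes that rose and 19.3% that fell. Mknk2 rose by 1.16 ± 0.16 and 1.86 ± 0.11.

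Within each genotype the diet contrast rested on 2 arrays against 2. In wildtype mice 4 members rose and 6 fell, or 10.2%, against 14.6% of all probe sets (7.97% higher and 6.63% lower). The rises were on Eif2s2 (1.41 ± 0.16), Eif3a (1.61 ± 0.18 and 0.80 ± 0.18) and Eif3c (1.21 ± 0.29), and the falls on Eif2b2 (3 probe sets, -1.12 to -0.82), Eif1a (-1.55 ± 0.35), Eif3i (-0.75 ± 0.17) and Eif4enif1 (-0.74 ± 0.18). In Alb::GC mice 3 rose and 1 fell, or 4.08%, against 6.77% of all probe sets (4.64% higher and 2.13% lower): Eif5b (1.33 ± 0.20), Eif4e3 (0.82 ± 0.13), Eif2s2 (0.77 ± 0.16) and Eif4enif1 (-0.81 ± 0.18). None of these calls was kept in all 8 fits without an array. In wildtype, 0 of the 10 calls were kept without either HFD wildtype array, 3 and 2 without LFD wildtype replicates 1 and 2, and 5 without any one of the 4 Alb::GC arrays. In Alb::GC, 0 of the 4 calls were kept without any one of the 4 HFD arrays or without LFD Alb::GC replicate 1, 1 without LFD Alb::GC replicate 2 and 3 without either LFD wildtype array.

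Alb::GC was set against wildtype to ask whether the GADD34 fragment altered the factors' mRNAs. No member passed on LFD, on HFD, or over both diets, and none passed for the diet by genotype interaction (limma, Benjamini-Hochberg; 9, 7, 8 and 7 members had an unadjusted p under 0.05). Of all 22626 probe sets, 0%, 0.133%, 0% and 0% passed in these 4 comparisons. The smallest p-values on LFD were those of Eif3a 1416660_at, with 1.15 and 0.9 in Alb::GC, against 0.43 and 0.51 in wildtype (1.04 ± 0.18, adjusted p = 0.174), of Eif2d 1451211_a_at (-0.71 ± 0.18, adjusted p = 0.317) and of Eif4e3 1417977_at (-0.50 ± 0.13, adjusted p = 0.325). On HFD they were those of Eif4e3 1417977_at, with 1.56 and 1.51 in Alb::GC, against 0.97 and 0.99 in wildtype (0.62 ± 0.13, adjusted p = 0.156), of Eif4e2 1435804_at (0.76 ± 0.22, adjusted p = 0.276) and of Eif5b 1434605_at (0.48 ± 0.17, adjusted p = 0.354). Over both diets they were those of Eif5b 1434605_at (0.50 ± 0.12, adjusted p = 0.232), Eif3a 1416660_at (0.52 ± 0.12, adjusted p = 0.238) and Eif5 1454663_at (0.32 ± 0.10, adjusted p = 0.311). For the interaction, the effect of HFD in Alb::GC minus that in wildtype, they were those of Eif4e3 1417977_at (1.12 ± 0.19, adjusted p = 0.142), Eif3a 1416660_at (-1.04 ± 0.25, adjusted p = 0.241) and Eif3m 1437189_x_at (1.07 ± 0.37, adjusted p = 0.387). Without LFD wildtype replicate 2 the 4 counts were again 0. With 2 arrays a group these p-values do not show that the genotypes were alike.

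The AP20187 and HFD experiments share no array, so the members' 2 differences can be set side by side. Over the 98 probe sets they correlated at r = 0.33 (Spearman 0.373), and over all 22626 probe sets at 0.133 (0.121); probe sets of 1 gene and of 1 array share their source, so these are descriptions. In both experiments 11 members passed, 7 of them in the same direction. These were Eif3a on 2 probe sets, Eif3c on 1415859_at, Eif5 on 1454663_at, Eif3i on 1416233_at, Eif4e on 1450909_at and Eif4e2 on 1421985_a_at. Apart from Eif3a they rest on 1 probe set each, and apart from Eif5 no further probe set of these genes passed in both. The other 4 passed in opposite directions: Eif1a (0.93 with AP20187 and -1.13 with HFD), Eif4enif1 (0.62 and -0.78), Eif2s3x (-0.46 and 0.60) and Eif5 on 1415723_at (0.57 and -0.36). Of all 22626 probe sets 2476 passed in both, 1661 in the same direction.

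**Figure D4:**
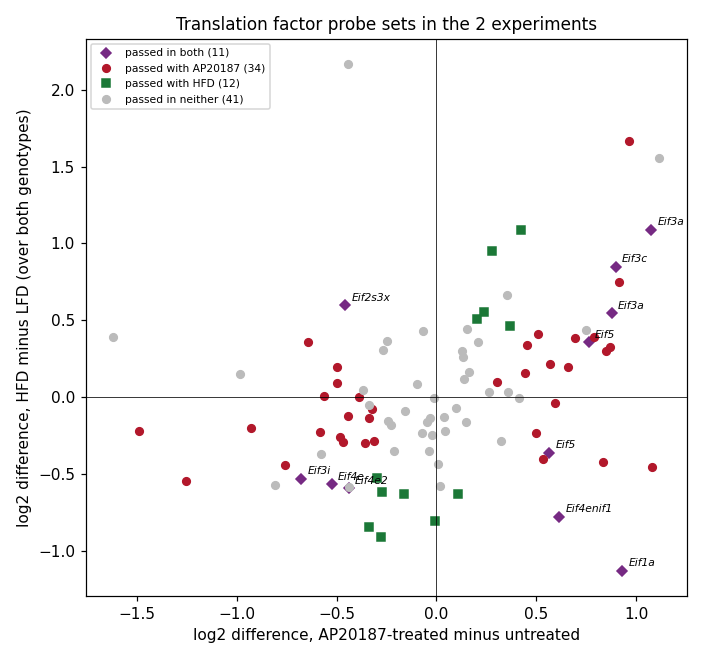
Log2 difference with AP20187 (x axis, treated minus untreated) against that with HFD over both genotypes (y axis, HFD minus LFD) for the 98 probe sets; purple diamonds passed in both (11), red points with AP20187 (34), green squares with HFD (12) and grey points in neither (41). Of the 11 diamonds 7 have the same sign on both axes, with Eif3a furthest to the upper right, and Eif1a lies furthest to the lower right.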

How the data were processed

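Liver RNA was extracted with an organic reagent and columns and copied into biotin-labelled cRNA for Affymetrix arrays, per the labels' protocols. The authors deposited a linear ratio for each probe set and array, to 2 decimals, with a lowest value of 0.01. This unit was read from the values. The sources used here do not state the denominator of the ratio, the scanner software or how probes were summarised, and detection of a transcript cannot be read from it. Precision is limited by the number of arrays. The members and gene lists were chosen with earlier results of these data known.

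After 64 control probe sets were left out, log2(ratio + 0.05) was fitted in each experiment alone with limma 3.58.1 (R 4.3.3) and Benjamini-Hochberg adjustment, with a variance trend and a two-sided adjusted threshold of 0.05. Residual degrees of freedom were 6 (TTR::Fv2E-PERK) and 4 (diet), to which the prior added 2.06 and 2.3. Symbols came from the platform annotation, in which 20380 probe sets had 1, 691 several and 1555 none. A gene was called up or down when at least 1 of its probe sets passed and none passed the other way. Genes with more probe sets had more chances of a call. For AP20187 and for HFD over both genotypes, up to 3 genes with the largest changes were named in each complex. Where none passed in a complex, the gene with the smallest p-value was named. All genes whose probe sets were opposed and a set of core factors were named too. For the genotype contrasts and the interaction, where no member passed, the 3 smallest p-values were named. Further members are given to account for each complex. The offset, scaling, low-value filter, variance trend, shared probe sets and each array left out were varied. No replicates were identical: 1.44% to 2.46% of values were equal at 2 decimals. The fits were tested on simulated data. Plots were made in Python 3.11.15 (pandas 2.3.3, matplotlib 3.10.9).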

Additional observations from a re-analysis of the deposited data

Results flagged for a closer look

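In 4 of 50 groups of 4 arrays tested, the highest array stood apart from the others by more than the critical value of Dixon's test; chance gives about 1 in 20. On 3 of the 4 it was AP20187 replicate 3. There Eef2 stood at 1.13, against 0.83 to 0.87 on the other AP20187 arrays, Eif3i 1416233_at at 0.82, against 0.67 to 0.69, and Eif4a1 1434985_a_at at 1.15, against 0.98 to 1. Eef1akmt1 1449072_a_at was 2.39 on untreated replicate 4, against 1.87 to 1.9 on the other untreated arrays. Without any single array, the 3 of these probe sets that had passed still passed, with adjusted p-values from limma of at most 0.0293.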

How the results depend on the processing

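With AP20187, the members past the threshold numbered 45, and 41 to 47 under the other offsets, scalings, filter and variance model and 36 to 47 without each array in turn. Over both genotypes, HFD gave 23, with 20 to 23 under those settings and 7 to 16 without an array. In wildtype HFD gave 10 (4 higher and 6 lower), but 5 under quantile normalization (3 higher and 2 lower). Under the other such settings it gave 10 to 13 in wildtype, and 0 to 7 without an array. In Alb::GC it gave 4, with 3 or 4 under those settings and 0 to 3 without an array. The genotype contrasts and the interaction gave 0 throughout. No named member passed in opposite directions under 2 settings. Over all repeats of a named member's test, 582 kept the side of the threshold, 113 lost the call and 5 gained one. The causes were not tested, and a fit with 1 array left out also rests on fewer arrays. No paired analysis was possible because the labels give no shared replicate numbers. The ratio gives no signal over background, so whether a member was measured near the detection limit is unknown.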
